A study of Saccharomyces cerevisiae with 18 samples.

Results

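Cells of the yeast Saccharomyces cerevisiae commit to division in G1 at a point called Start. The genes described here are 7 that control this step: FAR1, the G1 cyclin genes CLN1, CLN2 and CLN3, the repressor gene WHI5, the activator gene SWI4 and the cyclin-dependent kinase inhibitor gene SIC1. They were chosen for their known roles, with earlier results of these data known, out of 7124 genes in the RNA-seq count table. The study had already reported FAR1 among the genes lower in its mating-deficient variants, so its result here is not an independent finding. All 7 passed the filter on low counts, as did 6139 genes in all. Insertion peaks near their coding starts were taken from the calling-card data of the same study.

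Far1 arrests cells in G1 in response to mating pheromone by inhibiting the kinase Cdc28 with its G1 cyclins, and it also guides polarized growth toward the mating partner. FAR1 is a classical target of Ste12, the transcription factor at the end of the pheromone pathway. In cycling cells, Cln3 with Cdc28 relieves the repression by Whi5 of SBF, a complex of Swi4 and Swi6. SBF then switches on CLN1 and CLN2, and the kinase they form leads to destruction of Sic1, which until then holds back the S-phase cyclins.

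Wild-type Ste12 was compared with 6 variants that each change 1 amino acid of its DNA-binding domain. The study chose A160P, K146D and K152L as variants that mate poorly and K150A, K150I and S158H as variants that mate like wild type. K146D, K152L, K150A and K150I are hyper-invasive, A160P invades like wild type and S158H is defective for invasion. For RNA-seq, each form was expressed from its own promoter on a centromere plasmid (pRS415, LEU2 marker) in the BY4705 MATα strain, whose chromosomal STE12 had been deleted in every group, wild type included, and cells were taken in exponential phase. For calling cards, each form was fused to the PiggyBac transposase (Ste12-PBase), made from a galactose-inducible plasmid in BY4705 MATα cells that kept their own STE12, and cells were induced on galactose for several days before recovery and selection. The sources used here mention neither pheromone nor synchronized cultures for either assay. The labels describe both as plasmid overexpression.

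RNA-seq had 5 replicates of each form, 35 libraries in all, with 1039390 to 5481822 unique molecular identifiers (UMIs) each. Replicates 1 and 2 came from a first experiment and replicates 3, 4 and 5 from a second. Replicates 4 and 5 of every form stood apart from replicates 1 to 3 on the first principal component, which held 54.5% of the variance, and were less deeply sequenced, with a median of 2035310 against 3721261 UMIs. Values without them are therefore given where they change a result. The calling-card libraries, 2 for each form, held 5904 to 12778 UMIs in peaks. The markers of MATα cells were present in every group, with the 5 genes MF(ALPHA)1, MF(ALPHA)2, STE3, SAG1 and AFB1 summing to 644 to 5618 CPM (counts scaled to the normalized library total) per library, whereas the 7 markers of MATa cells summed to 24.3 to 130.0 CPM, and 3 of them, MFA1, MFA2 and ASG7, fell below the count filter. All 5 MATα markers were lower in A160P than in wild type, and of the 5 only SAG1 was lower in K146D and K152L (edgeR, adjusted p below 0.05).

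FAR1 (YJL157C, chromosome X, 123836 to 126328, minus strand, R64 assembly) was strongly reduced in the mating-defective variants. In wild type it stood at 258, 263, 294, 293 and 253 CPM in replicates 1 to 5. In A160P the values were 48.3, 46.5, 53.3, 57.6 and 56.7 CPM, all below every wild-type library by a wide margin. K146D had 93.3, 91.1, 96.1, 85.3 and 82.3 CPM. K152L had 89.9, 83.9, 89.8, 84.2 and 65.1 CPM. None of these 15 libraries overlapped a library of any form that mates normally, as the plot of FAR1 by library shows. Against wild type alone, 1.25% of all genes tested lay wholly lower in A160P, 1.12% in K146D and 1.09% in K152L, and 0.212% lay wholly lower in the mating-defective than in the mating-competent class.

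**Figure D1:**
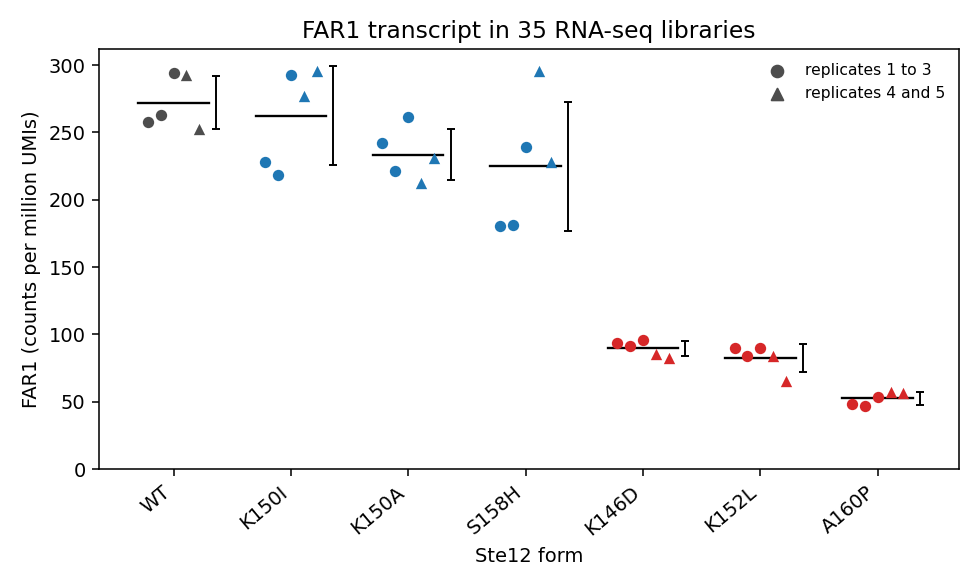
FAR1 transcript level, in CPM, in each of the 35 RNA-seq libraries (circles, replicates 1 to 3; triangles, replicates 4 and 5), with wild type in grey, mating-competent variants in blue and mating-defective variants in red; horizontal lines are means and bars to their right are ± 1 SD, n = 5. The 15 mating-defective libraries lie between 46.5 and 96.1 CPM and the 20 others between 180 and 296 CPM.

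Relative to wild type (272 ± 19.8 CPM, SD, n = 5), FAR1 was 5.19-fold lower in A160P (95% interval 4.38 to 6.14; log2 fold change −2.37 ± 0.12 SE, adjusted p = 1.87e-15). It was 3.03-fold lower in K146D (2.57 to 3.57; log2 −1.60 ± 0.12, adjusted p = 2.18e-11) and 3.29-fold lower in K152L (2.79 to 3.88; log2 −1.72 ± 0.12, adjusted p = 4.88e-12). These p-values come from edgeR's quasi-likelihood test with Benjamini-Hochberg adjustment over all 6139 genes. In this fit, which held genotype and no replicate number, FAR1 was the only one of the 7 genes called in any variant. That is 1 of 7 in each mating-defective variant, where 0.928% of all genes were called in A160P, 0.7% in K146D and 0.896% in K152L. Because RNA was taken from whole cultures, fewer cells that express FAR1 and less FAR1 RNA per cell cannot be told apart. The transcript did not disappear: in A160P it remained at 19.3% of wild type (16.3% to 22.8%).

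In the variants that mate normally, the FAR1 range overlapped that of wild type, though many libraries lay below the lowest wild-type library (253 CPM). These were replicates 1 and 2 of K150I, all of K150A but replicate 3 and all of S158H but replicate 4. K150I had 228, 219, 292, 277 and 296 CPM, overlapping wild type on both sides. K150A had 242, 221, 261, 212 and 231 CPM. S158H had 180, 181, 239, 296 and 228 CPM, so its 2 libraries of the first experiment were the lowest of the class and a library of the second was among the highest of all. None of the 3 was called against wild type, with log2 fold changes of −0.05 in K150I (95% interval −0.28 to 0.18), −0.22 in K150A (−0.45 to 0.01) and −0.28 in S158H (−0.51 to −0.05), where 0.0652%, 0.586% and 0% of all genes were called. The intervals leave room for a reduction of up to 1.42-fold in S158H. With replicates 1 to 3 alone, S158H was called (log2 −0.45, adjusted p = 0.0387, edgeR; 2.1% of 6002 genes called), and with the first experiment alone likewise (log2 −0.53, adjusted p = 0.000501; 5.26% of 6004 genes called). In the second experiment alone its log2 fold change was −0.13, with an adjusted p of 1.00. The difference in FAR1 between the experiments was +0.39 on the log2 scale in S158H, with an unadjusted p of 0.0357 and an adjusted p of 1.00 in the edgeR interaction test.

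Ordered by mean level, FAR1 fell into 3 steps: wild type, K150I (262 ± 36.5 CPM), K150A (234 ± 19.1 CPM) and S158H (225 ± 47.8 CPM), then K146D (89.6 ± 5.72 CPM) and K152L (82.6 ± 10.2 CPM), then A160P (52.5 ± 4.94 CPM; all SD, n = 5). Pairs within a step did not pass the test, K152L against K146D included (log2 −0.12, 95% interval −0.35 to 0.12). The neighbours S158H and K146D differed by −1.32 on the log2 scale (adjusted p = 2.59e-09), and A160P was lower than K152L by a further −0.66 (adjusted p = 0.00325) and than K146D by −0.78 (adjusted p = 0.000228, all edgeR). Of the 21 pairs of forms, 14 were called for FAR1 and none for the other 6 genes, with genotype alone in the fit. Against all genes, these pairs were sparse: 0.57%, 0.391% and 0.57% of genes were called in K146D, K152L and A160P against K150I, 0.489%, 0.358% and 0.521% against K150A, and 0.521%, 0.44% and 0.635% against S158H. Within the mating-defective class the shares were 0.0977% for A160P against K146D, 0.13% for A160P against K152L and 0% for K152L against K146D, and within the mating-competent class 0.0489% for S158H against K150I, 0.114% for S158H against K150A and 0% for K150A against K150I. In the comparison of the 2 classes, which uses no wild-type library, FAR1 was 3.28-fold lower in the mating-defective class (2.98 to 3.61; adjusted p = 6.04e-19), in a comparison that called 1 of the 7 genes and 1.14% of all genes. The 3 calls against wild type and the call between the classes stood in every alternative fit and without any of the 35 libraries in turn.

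The STE12 transcript itself, read from the plasmid, was not reduced in any variant. It was at 156 ± 23.4 CPM with wild-type Ste12 and higher in A160P (564 ± 165 CPM), K152L (451 ± 177 CPM), K146D (369 ± 74.8 CPM) and K150A (361 ± 82.5 CPM; SD, n = 5; edgeR, adjusted p = 6.37e-06, 0.000171, 0.00294 and 0.00793). K150I had 330.4 ± 83.5 CPM and S158H 215 ± 44.3 CPM, which were not called. The amount of Ste12 protein was not measured in these data.

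Proteins that work with Far1 in mating were next examined as a list of 10 genes. FUS3, the MAP kinase that phosphorylates Far1, was lower in A160P (49.4 against 119.7 CPM in wild type), K146D (48.4 CPM) and K152L (58.7 CPM; log2 −1.27, −1.31 and −1.02, adjusted p at most 9.97e-06, edgeR). STE4, the Gβ subunit to which Far1 binds at the cell cortex, was lower in A160P alone among the calls (151 against 221 CPM, log2 −0.55, adjusted p = 0.0465), a call lost in 24 of 48 alternative fits. KSS1, the related MAP kinase, was lower in K152L (16.6 against 28.2 CPM, log2 −0.77, adjusted p = 0.00805). The other 7 genes of the list, STE18, CDC24, BEM1, CDC42, MSN5, CDC28 and CDC4, had no call in any variant, and the list's median log2 fold change was −0.12 in A160P, −0.14 in K146D and −0.16 in K152L, against medians within 0.01 of 0 over all genes.

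The genes most like FAR1 in pattern belonged to the pheromone response. Over the 35 libraries, after removing the mean of each replicate number from log2(CPM + 1), the 5 genes most like FAR1 among 6139 were GPA1, the Gα subunit of the pheromone pathway (Pearson r = 0.98), FUS3 (0.94), TEC1, the partner of Ste12 in invasion (0.94), SST2, which turns the pathway off (0.93), and FUS1, a cell fusion gene (0.93). These values are descriptive, since the 35 libraries share 7 genotypes. A reference list of 10 pheromone-responsive genes, partly taken from genes already known to change in these samples and so not independent evidence, had 8 members lower in A160P, 9 in K146D and 8 in K152L, where 0.928%, 0.7% and 0.896% of all genes were called in either direction. FUS1 was at 9.44 CPM in A160P against 60.4 CPM in wild type, and SST2 at 18.7 against 128 CPM. AGA1, the anchor of the agglutinin, and KAR4, a nuclear fusion regulator, were higher in K150A (log2 1.83 and 0.87) and K150I (log2 1.68 and 0.70; adjusted p at most 0.0102, edgeR).

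Against wild type, the means of the other 6 genes differed less than that of FAR1 did in the mating-defective variants. Some of their comparisons were called only in fits with a replicate block or on fewer libraries, as given below. With genotype alone in the fit, none of their 36 comparisons with wild type was called by edgeR or by DESeq2, with 3 at an unadjusted p under 0.05 in each tool. None of the 126 comparisons between all pairs of forms was called either, with 7 at an unadjusted p under 0.05 in edgeR. With the replicate number as a block, which treats libraries of the same number as paired, CLN2 was called in 2 pairs of forms. Its values are given below. The intervals of the fit without that block set a limit on what it could have missed: for SWI4 every interval against wild type lay between −0.32 and 0.33 on the log2 scale, whereas for WHI5 they reached from −1.01 to 0.97.

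**Figure D2:**
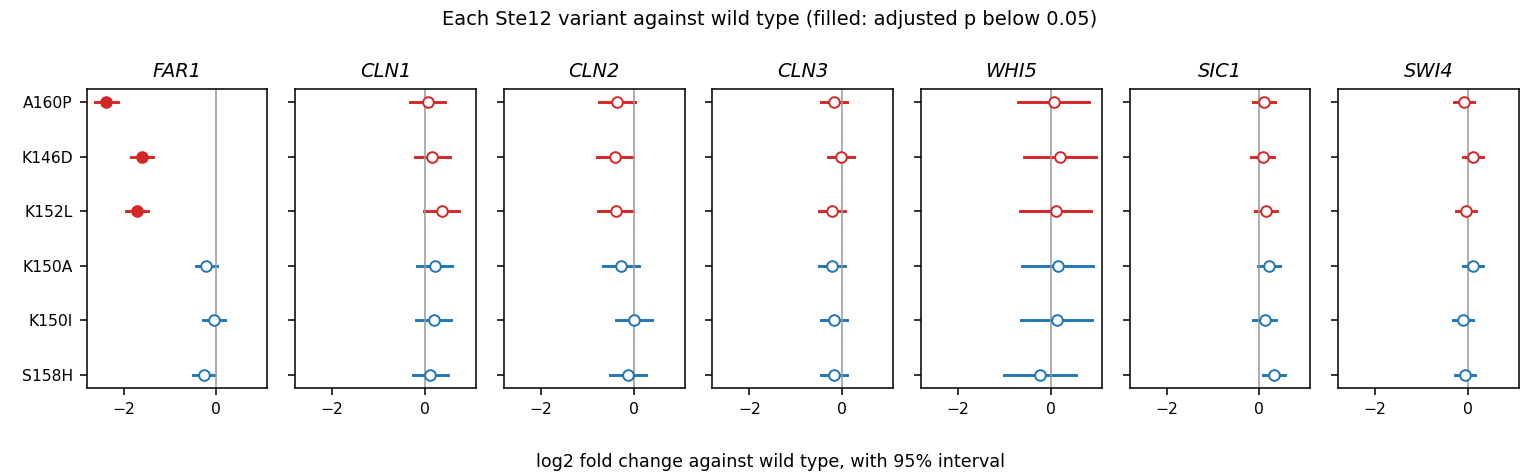
Log2 fold change of each gene in each Ste12 variant against wild type (points) with its 95% interval (lines), from edgeR; filled points have an adjusted p below 0.05, red marks mating-defective and blue mating-competent variants. Only FAR1 in A160P, K146D and K152L is filled; the widest intervals are those of WHI5.

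CLN3, the cyclin that acts first, had 131, 136, 183, 167 and 145 CPM in wild type. Its group means ran from 131 CPM in K150A to 152.4 CPM in wild type, with standard deviations of 15.3 to 33.2 CPM, and its log2 fold changes against wild type from −0.22 to −0.03. Every variant overlapped wild type. K150A held the lowest library of the 35, at 92.6 CPM, and also one at 174 CPM. With the first experiment alone, where K150A had 108 and 92.6 CPM against 131 and 136 CPM in wild type, CLN3 was called lower in K150A (log2 −0.41, adjusted p = 0.0359, edgeR).

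CLN2 had the lowest adjusted p between the classes after FAR1, though it was not called. Wild type had 134, 126, 118, 151.6 and 168 CPM, and K150I, at 131, 120.5, 119, 193 and 137 CPM, covered the same range. K146D had 103, 119, 92.9, 104 and 104 CPM. K152L had 105, 85.6, 87.4, 156 and 98.9 CPM. A160P had 103, 90.8, 86.7, 158.3 and 104 CPM. In K152L and A160P all libraries but replicate 4 lay below the lowest wild-type library, and in K146D all but replicate 2 did. The log2 fold changes were −0.41 ± 0.19 in K146D, −0.39 ± 0.19 in K152L and −0.36 ± 0.19 in A160P (SE), with unadjusted p of 0.0383, 0.0473 and 0.0633 and no call by edgeR. Between the classes the log2 difference was −0.26 (95% interval −0.48 to −0.04, adjusted p = 0.646).

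With the replicate number as a block, CLN2 was called lower in K152L (log2 −0.41, adjusted p = 0.0185), in A160P (log2 −0.39, adjusted p = 0.0347) and between the classes (log2 −0.25, adjusted p = 0.0166, all edgeR), but not in K146D (log2 −0.38, adjusted p = 0.0536). That fit called 3.62%, 2.59%, 3.13% and 1.92% of all genes in these 4 comparisons. The lower values were not confined to the mating-defective class. K150A, which mates normally, had 103, 91.7 and 82.7 CPM in replicates 1 to 3, all below wild type, and 176 and 124 CPM in replicates 4 and 5. With replicates 1 to 3 alone, CLN2 was called in K150A (log2 −0.44, adjusted p = 0.0470) and in K152L (log2 −0.45, adjusted p = 0.0372), in comparisons that called 4.83% and 5.45% of 6002 genes. With wild-type replicates 4 and 5 both left out, the log2 fold changes of CLN2 shrank to −0.22 in A160P, −0.26 in K146D and −0.25 in K152L, with no call.

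CLN1, whose product works alongside Cln2, had 101, 92.5, 96.9, 69.2 and 131 CPM in wild type. Group means ran from 98.0 CPM in wild type to 126 CPM in K152L. The difference in K152L was the greatest of the 6 at log2 0.36 (95% interval −0.02 to 0.74), and it was not called (adjusted p = 0.955, edgeR). As a description over the 35 libraries, which share 7 genotypes, the r of CLN1 with CLN2 was 0.11 with the mean of each replicate number removed and 0.41 without that step. With the step, the r of FAR1 was 0.62 with CLN2 and −0.08 with CLN1.

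**Figure D3:**
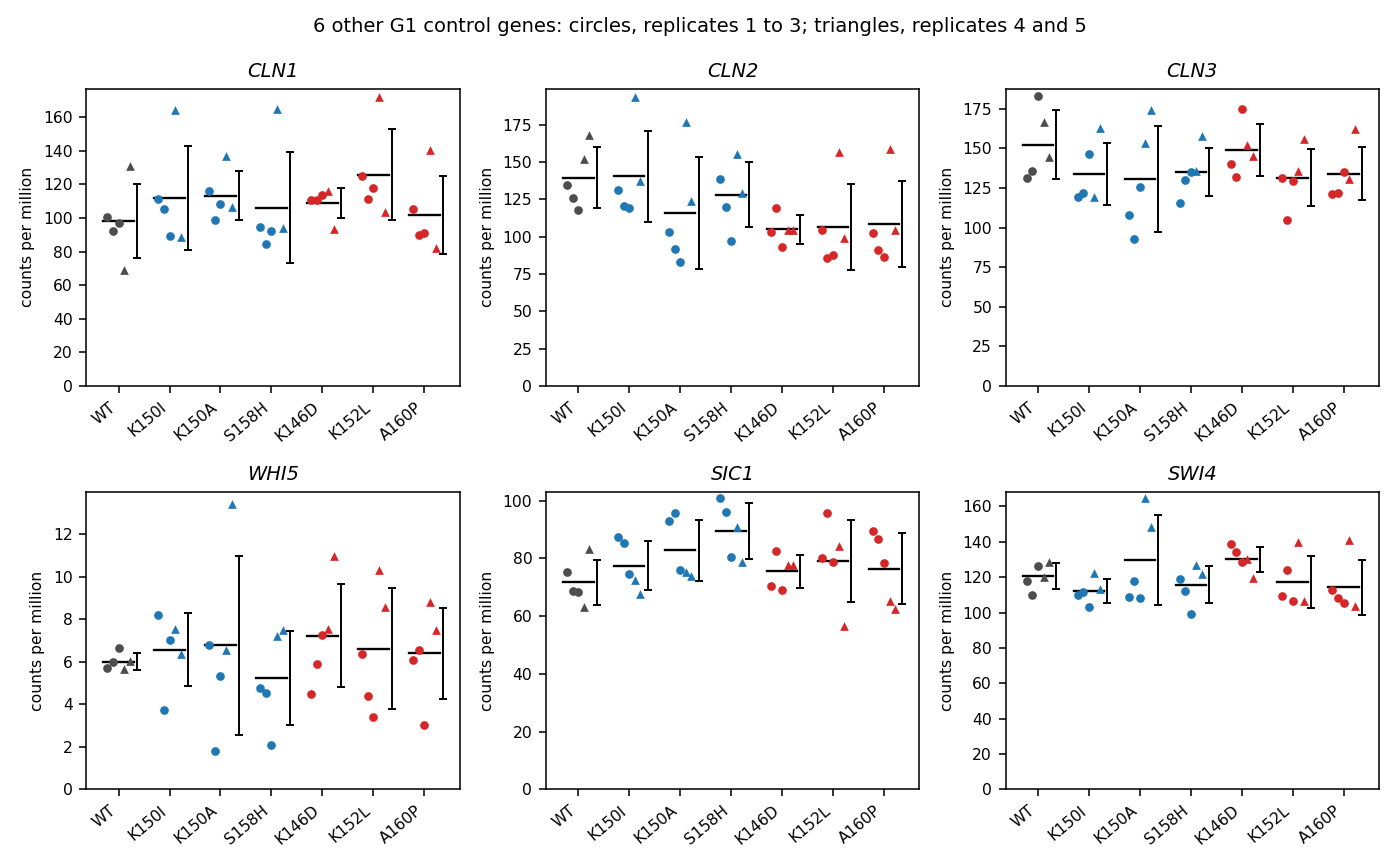
Transcript levels of CLN1, CLN2, CLN3, WHI5, SIC1 and SWI4 in CPM in the 35 libraries (circles, replicates 1 to 3; triangles, replicates 4 and 5; grey, wild type; blue, mating-competent; red, mating-defective), with means and ± 1 SD, n = 5; the vertical scales differ. Wild type overlaps every variant in every panel, and CLN2 is highest in replicate 4 in K150I, K150A, S158H, K152L and A160P.

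Replicates 4 and 5 of wild type ran opposite to those of the variants for CLN1. Wild type had 69.2 CPM in replicate 4 and 131 CPM in replicate 5. In all 6 variants replicate 4 was the higher, with 164 against 88.9 CPM in K150I, 165 against 94.2 CPM in S158H and 172 against 103 CPM in K152L, as the plot of one replicate against the other shows. CLN2 was likewise higher in replicate 5 of wild type (168 against 151.6 CPM) and higher in replicate 4 of 5 variants, with K146D level at 104 CPM in both. Over all genes, replicate 5 of each variant deviated from its group mean more like wild-type replicate 4 (r = 0.74 to 0.81) than like wild-type replicate 5 (r = 0.19 to 0.32). Replicate 4 was mixed: in A160P, K152L, K150I and S158H it was more like wild-type replicate 5 (r = 0.63 to 0.76) than 4 (0.27 to 0.46), but in K146D and K150A more like wild-type replicate 4 (0.76 and 0.60) than 5 (0.42 and 0.45). Whether these 2 wild-type labels correspond to those of the variants was not tested. Without both of these wild-type libraries the FAR1 log2 fold changes were −2.37 in A160P, −1.60 in K146D and −1.72 in K152L, all still called.

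**Figure D4:**
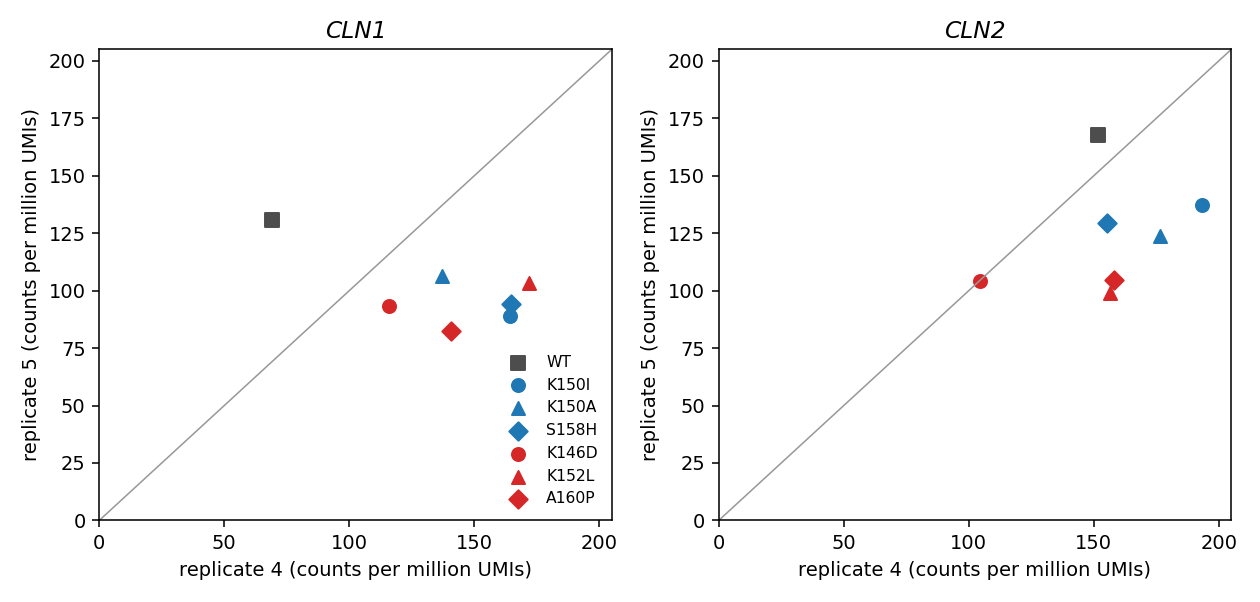
CLN1 and CLN2 in replicate 5 against replicate 4 of each Ste12 form, both in CPM; the diagonal marks equal levels, grey is wild type, blue mating-competent and red mating-defective. For CLN1 the 6 variants lie below the diagonal and wild type (69.2 and 131 CPM) above it; for CLN2 wild type again lies above it (151.6 and 168 CPM).

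WHI5, the repressor of SBF, was measured from few molecules, 6 to 36 UMIs per library, so small differences were not detectable at this depth. Wild type had 5.70, 5.98, 6.62, 5.65 and 6.05 CPM. The variants ranged from 1.79 CPM in a K150A library, which is 6 UMIs, to 13.4 CPM in another. Every variant overlapped wild type, and the group means lay between 5.22 CPM in S158H and 7.23 CPM in K146D. Its mean was 1.55 times higher over replicates 4 and 5 than over replicates 1 to 3.

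SWI4, the DNA-binding subunit of SBF, was the steadiest of the 7 across libraries, with a ratio of 1.66 between its highest and lowest level. Wild type had 118, 110.0, 126, 120.1 and 129 CPM. Its log2 fold changes ran from −0.11 in K150I to 0.11 in K146D, none of them called.

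SIC1, the inhibitor of the S-phase kinase, had 75.2, 68.6, 68.4, 63.1 and 83.2 CPM in wild type. S158H had 101, 96.0, 80.6, 91.0 and 78.8 CPM, with 1 wild-type library inside its range. That difference was log2 0.32 (95% interval 0.08 to 0.56, unadjusted p = 0.0113) and was not called over all genes (adjusted p = 1.00, edgeR). With the first experiment alone it was called in S158H (log2 0.44, adjusted p = 0.0230) and in K150A (log2 0.38, adjusted p = 0.0493), the latter in a comparison that called 5.56% of 6004 genes.

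In 4 alternative fits more of the 7 genes were called, and more of all genes as well. In other fits on fewer libraries fewer of all genes were called: with the second experiment alone 19 in A160P and with A160P and wild-type libraries alone 31, against 57 in the fit of all libraries. The first experiment alone called 9 of the 42 comparisons with wild type, where 3.91%, 1.07%, 6.23%, 5.56%, 1.62% and 5.26% of all genes were called in A160P, K146D, K152L, K150A, K150I and S158H and 2.96% between the classes. Replicates 1 to 3 alone called 6 of 42, with shares of 3.85%, 1.12%, 5.45%, 4.83%, 1.32% and 2.1% in the same order and 2.42% between the classes. The replicate block called 5 of 42, with shares of 2.59%, 1.92%, 3.62%, 4.82%, 0.391% and 1.19%, and 3.13% between the classes. The block on replicates 1 to 3 alone called 14 of 42, with shares of 11.1%, 2.63%, 12.8%, 11.4%, 5.65% and 8.46%, and 6.55% between the classes. FAR1 in A160P, K146D and K152L was called in all 4 fits.

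Genes that act with or below these regulators were read from lists of known roles, beside shares of all genes called of 0.928% in A160P, 0.7% in K146D, 0.896% in K152L, 0.586% in K150A and 1.14% between the classes. Of 14 genes of the Start machinery, MSA1, a partner of SBF and MBF, was lower in A160P (77.5 against 106 CPM, log2 −0.46, adjusted p = 0.0125, lost in 6 of 48 alternative fits) and between the classes (log2 −0.33, adjusted p = 0.000512), and the other 13 had no call. Of 10 SBF targets, MNN1, a mannosyltransferase gene, was higher in the mating-defective class (86.3 against 72.7 CPM, log2 0.25, adjusted p = 0.0344, lost in 15 of 47 alternative fits), and PCL1, PCL2, HCM1, YOX1, SVS1, CSI2, GIN4, TOS4 and HO had no call. None of 14 MBF targets, among them CLB5, CLB6 and RNR1, was called in any of the 7 comparisons. Of 7 genes expressed early in G1, MCM5, a subunit of the replicative helicase, was lower in K150A (58.7 against 75.9 CPM, log2 −0.38, adjusted p = 0.0473), a call lost in 33 of 48 alternative fits. Of 11 genes of G2 and mitosis, CDC20, an activator of the anaphase-promoting complex, was lower in A160P (77.8 against 113 CPM, log2 −0.54, adjusted p = 0.000957) and K152L (74.0 CPM, log2 −0.61, adjusted p = 0.000171), and HST3, a histone deacetylase gene, in K150A (49.8 against 67.6 CPM, log2 −0.44, adjusted p = 0.0233, lost in 10 of 48 alternative fits, all edgeR). The SBF list had a median log2 fold change of −0.13 in A160P, 0.14 in K146D and −0.03 in K152L, and the MBF list of −0.10, 0.01 and −0.06.

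Binding was read from a window of 1000 bp 5′ to 200 bp 3′ of each coding start. The FAR1 window held no peak for wild-type Ste12 or for any variant. The values read here hold only insertions inside called peaks, so insertions outside peaks in this window cannot be seen. The absence of a peak therefore sets no limit on the share of insertions there. The upstream neighbour SSY5 ends 524 bp before FAR1 begins, so the window covers the whole space between the genes. The nearest peak of the list lay 3112 bp 3′ of the FAR1 start (chromosome X, 122975 to 123216, R64), beyond the end of FAR1 and in the window of CIS3, a cell wall protein gene. It held 90 and 40 UMIs in the wild-type replicates, 1 UMI in a K152L replicate and 0 in every other variant library. CLN3 and SIC1 had no peak in their windows either, and their nearest peaks lay 1659 bp 3′ and 2566 bp 5′ of their starts. CLN1, CLN2, WHI5 and SWI4 had a peak, that is 57.1% of the 7 genes, against 27.4% of 6002 gene windows. PiggyBac inserts only at TTAA sites, whose number in these windows was not counted here.

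WHI5 had the strongest wild-type signal of the 7 windows. Its peak (chromosome XV, 479224 to 479370, R64) lay 309 to 163 bp upstream of the coding start, in the 344 bp between WHI5 and the divergent gene TGL5, and so belongs to the windows of both. Wild type had 52 and 32 UMIs in its 2 replicates, K150I 64 and 78, K150A 28 and 41 and A160P 78 and 63. K146D had 8 and 10 UMIs, S158H 2 and 5 and K152L 3 and 2. Among the UMIs in peaks, this peak thus held many for wild type, both K150 variants and A160P and few for the other 3. Here and in the windows below, values are shares of each library's UMIs in peaks, not amounts of binding. The paper reported much lower transposition efficiency for A160P, K146D and K152L than for the other forms. A higher share in these variants therefore does not mean more insertions per cell. On log2(CPM + 100), CPM here being UMIs scaled to the total in peaks, K152L was lower than wild type by −3.57 ± 0.36, S158H by −2.88 ± 0.36 and K146D by −2.06 ± 0.36 (SE; limma, adjusted p = 3.98e-05, 0.000161 and 0.00112, 2 replicates each). A160P was higher by 1.11 ± 0.36 (adjusted p = 0.0370), a call lost without either replicate of wild type, of A160P or of K150I. These libraries divide by the UMIs in peaks, and in A160P 2 peaks elsewhere held 50.4% and 47.0% of them; with those left out of the totals the A160P difference was 2.06 (adjusted p = 0.00159). The WHI5 transcript had no call in any variant.

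The order of the forms at CLN1 was a different one. Its peak (chromosome XIII, 661478 to 661675) lay 1166 to 969 bp upstream, across the 3′ end of the neighbour CIK1. K150A had 122 and 90 UMIs there, A160P 23 and 19, S158H 8 and 9 and K146D 5 and 4. Wild type had 4 and 0, K152L 4 and 1 and K150I 0 and 2. K150A, A160P and S158H exceeded wild type by 5.89, 3.93 and 2.90 on the log2 scale (SE 0.75 each; limma, adjusted p = 0.000185, 0.00233 and 0.0115), the last not without wild-type replicate 2 or S158H replicate 2. The size of the K150A difference depended on wild type, whose 4 UMIs were all in replicate 1: it was 6.91 without that library and 4.86 without wild-type replicate 2, called in both. K150A and K150I, which change the same residue, had 122 and 90 against 0 and 2 UMIs at this peak, while their CLN1 transcript means were 113 and 112 CPM. The counts of K150I, wild type and K152L were all near 0, so their order is not resolved.

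CLN2 had 2 peaks in the 1110 bp between it and the divergent gene BBP1. The one 742 to 642 bp upstream (chromosome XVI, 67256 to 67356) had 22 and 24 UMIs in K146D, 1 and 13 in K152L, 0 and 1 in S158H and 0 in the other 4 forms. The one 515 to 412 bp upstream (67026 to 67129) had at most 3 UMIs in any library. Over the window, K146D was higher than wild type by 4.13 ± 0.84 on the log2 scale (SE; limma, adjusted p = 0.00258), and K152L, whose replicates differed, was not called (2.29 ± 0.84, adjusted p = 0.0647). SWI4 had 5 and 4 UMIs in K146D (chromosome V, 386826 to 386926, 1050 to 950 bp upstream) and 0 in all 12 other libraries. This peak lies across the far edge of the SWI4 window, in the 1355 bp between SWI4 and the divergent gene LSM4. It belongs to the windows of both and is nearer to the LSM4 start. Against the 3 UMIs that a count of 0 allows over both wild-type replicates, the K146D share was at least 3.27-fold higher, as a description. The SWI4 window passed the filter on low counts only through these K146D libraries. Its limma call therefore rests on libraries at 0 and on the group that let it be tested, and no conclusion is drawn from it.

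**Figure D5:**
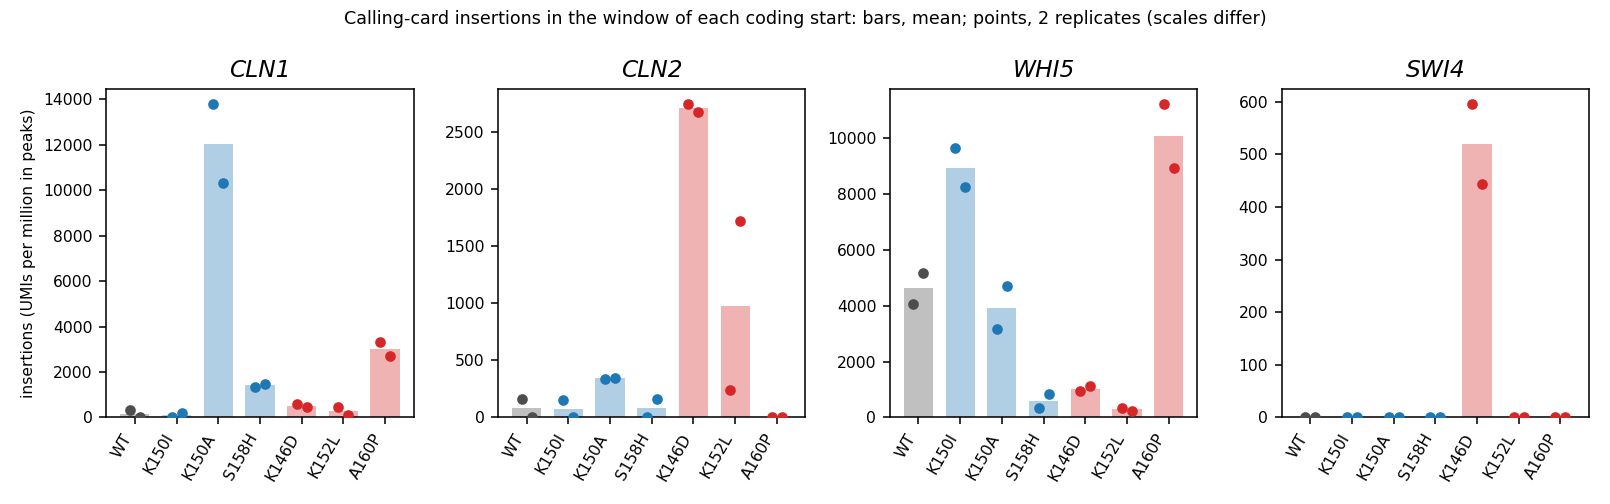
Calling-card insertions in the windows of CLN1, CLN2, WHI5 and SWI4, in CPM of UMIs in peaks, for each Ste12 form (points, 2 replicates; bars, their mean; grey, wild type; blue, mating-competent; red, mating-defective); the vertical scales differ. The highest bar is K150A for CLN1, K146D for CLN2 and SWI4, and A160P for WHI5.

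In all, 9 of the 24 comparisons of these 4 windows with wild type were called by limma, 6 higher and 3 lower. The 9 include the SWI4 call in K146D, which rests on libraries at 0 in a window tested only through K146D. The 24 include the other SWI4 comparisons, which set 0 against 0 and could not be called. With these included, the share called was 37.5%, beside 40.3% (A160P), 48.9% (K146D), 37% (K152L), 42.9% (K150A), 39.9% (K150I) and 41.5% (S158H) of all 981 windows tested. Because the SWI4 comparisons could not inform it, that share is not ranked against those of all windows, and no result about the 4 genes is read from it. Between the classes 64.2% of all windows were called, but the libraries of the classes overlapped at each of the 4 windows, and no class difference is read from them. Counting as a site at least 3 UMIs in both replicates, K146D had sites in 4 of the 7 windows, K150A in 3, A160P in 2, wild type, K150I and S158H in 1 each and K152L in 0, where 5.11%, 4.23%, 1.68%, 4.6%, 2.58%, 3.1% and 2.1% of all windows held one. With genotype alone in the fit, the transcripts of CLN1, CLN2, WHI5 and SWI4 were called in no variant. With the replicate block, CLN2 was called lower in K152L and A160P. FAR1, called lower in A160P, K146D and K152L in both fits, had no insertion peak listed in its window.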

How the data were processed

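The authors counted RNA-seq reads by UMI after oligo-dT priming and deposited them as raw gene counts (7124 genes, 35 libraries, called biological replicates). Whether they come from separate transformants is not given in the sources used here, so p-values measure the spread between these libraries. Calling-card values were deposited by the authors as the natural log of CPM plus 1 for 2188 MACS2 peaks on R64. The submitters' processing notes also name bcl2fastq, Trim Galore 0.4.1 and STAR. Undoing the log returned whole numbers of UMIs (tolerance 0.001) in 100% of 30632 entries. The transposase-only libraries were not analysed here.

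Counts were fitted with edgeR 4.0.16 (R 4.3.3), using TMM factors, a genotype-wise filterByExpr and the quasi-likelihood test, with p adjusted after Benjamini-Hochberg over 6139 genes and a threshold of 0.05, in 1 model of all libraries with URA3 left out, as in the study. CPM are TMM-normalized. Calling-card UMIs were summed over peaks overlapping each window by at least 1 bp and fitted with limma 3.58.1 on log2(CPM + 100), keeping the 981 windows where 2 or more libraries had 3 or more UMIs. On simulated data, the RNA fit for A160P over 6049 genes called 90.9% of the changed genes with 6.77% false calls, and the binding fit for K146D over 684 windows called 47.5% with 3.06% false calls. Every planted RNA change was larger than any uncalled difference of the 7 genes from wild type. Libraries were drawn as independent, with no shift shared by replicates of the same number. These shares therefore do not say how often changes as small as the uncalled ones would be found.

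Same-numbered libraries of a variant and wild type deviated together in 30 of 30 pairs (r 0.19 to 0.76, median 0.58, against −0.45 for different numbers). Each library was taken relative to its group mean, so positive r at the same number forces negative r at others, and −0.45 is no neutral baseline. These r do not show that libraries match number by number. The numbers from the labels were taken as pairing only in the fits with a replicate block. The main fit held genotype only, the study naming no covariate, and so left this pairing out. These numbers follow the split between replicates 1 to 3 and 4 to 5, and within the latter the match of wild type is as described above. Alternatives were RLE factors, DESeq2 1.42.0, no filter, covariates, each experiment alone, a replicate block, URA3 kept and each library left out, and for binding edgeR, a proportion test, other pseudocounts, windows and minimums. Replicates 1 to 3 alone, wild-type replicates 4 and 5 left out, and A160P totals without 2 peaks were added after seeing the data. Named genes were the 7 genes, STE12, the genes of each list called in a variant or between the classes (at most 8 per list) and those most correlated with each of the 7. The 7 genes and the lists were chosen with earlier results of these data known. The result of 1 gene list is not reported here.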

Additional observations from a re-analysis of the deposited data

Results flagged for a closer look

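Of 49 groups of 5 libraries tested for a library far from the rest of its group, 7 were marked, where chance marks about 1 in 20. FAR1 in K152L replicate 5 was 65.1 CPM, with the next library at 83.9 CPM. CLN1 was 165 CPM in S158H replicate 4, with the next at 94.6 CPM, and 93.2 CPM in K146D replicate 5, with the next at 110.4 CPM. CLN2 was highest in replicate 4 of A160P (158.3 CPM), K150I (193 CPM) and K152L (156 CPM), with the next libraries at 104, 137 and 104 CPM. SWI4 was 141 CPM in A160P replicate 4, with the next at 112 CPM. These 7 values come from 6 libraries, since A160P replicate 4 is marked for CLN2 and SWI4, and 4 of the 6 are numbered 4.

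WHI5 in S158H lay below wild type in each of replicates 1 to 3 (2.09 to 4.76 against 5.70 to 6.62 CPM) and above it in replicates 4 and 5 (7.21 and 7.49 against 5.65 and 6.05 CPM). The difference between the 2 sets of libraries was 1.00 on the log2 scale, with an unadjusted p of 0.132 and an adjusted p of 1.00 in the edgeR interaction test, on 7 to 24 UMIs per library.

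Peaks outside the windows also carried insertions. The peak nearest to FAR1, in the CIS3 window, held 130 UMIs over both wild-type replicates. A peak 1851 to 1951 bp 3′ of the CLN2 start held 10 UMIs in K150A, and one 2666 to 2566 bp 5′ of SIC1 held 5 UMIs in S158H, where a count of 0 allows 3.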

How the results depend on the processing

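Among the comparisons of each variant with wild type, 3 of 42 were called for the 7 genes, and 3 without any single library. The count rose to 5 with the replicate block, to 9 with the first experiment alone, to 6 with replicates 1 to 3 alone and to 14 with the replicate block on replicates 1 to 3 alone. The calls added by the last fit were of FAR1 in S158H, CLN2 in A160P, K152L and K150A, CLN1 in K152L, CLN3 in K152L and K150A, and SIC1 in A160P, K152L, K150A and S158H. Between the classes, 1 of 7 genes was called, 1 without any single library, and 2 with the replicate block, on all libraries or on replicates 1 to 3. The number of FAR1 pairs called was 14 with TMM, with RLE factors, with the replicate block and without any single library, the fits in which pairs were run. No interaction was called (0 of 42) by edgeR or DESeq2, with 1 at an unadjusted p under 0.05 in edgeR for the split by experiment and 3 for replicates 4 and 5 against 1 to 3 (SIC1 in A160P, CLN3 and SWI4 in K150A). Binding calls numbered 9 of 24, 7 to 10 without single libraries and 7 to 11 under the other settings, replicate block included (9). Gene windows with a site, summed over forms, were 12 when each replicate needed 3 UMIs, 16 when it needed 1 and 7 when it needed 10. No result of the 7 genes or of the named list genes reversed. Among list genes named in the text, calls lost in more than 5 alternatives were MCM5 (33 of 48) and HST3 (10 of 48) in K150A, STE4 (24 of 48) and MSA1 (6 of 48) in A160P and MNN1 between the classes (15 of 47). Depth limits WHI5, at 6 to 36 UMIs, and binding, where the simulated fit recovered 47.5% of the planted changes over all windows and 71.4% in those with a mean of at least 20 UMIs.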

Other observations

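The 6 genes other than FAR1 were each most like genes outside the G1 network over the 35 libraries, after removal of the mean of each replicate number. CLN1 was most like COX5B (r = 0.86) and URA10 (0.84), CLN2 like RGC1 (0.78) and SCW10 (0.77), CLN3 like YHR033W (0.80) and YCK1 (0.79), WHI5 like CYC8 (0.64) and PTK1 (0.63), SIC1 like RTK1 (0.75) and SKN1 (0.74), and SWI4 like XBP1 (0.74) and PDR15 (0.73). Without that removal the r of CLN1 with COX5B was 0.28 and that of SWI4 with PDR15 was 0.13. These are the highest of 6139 genes for each and are given as descriptions only.

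Over all forms, CLN2 averaged 107 CPM in replicates 1 to 3 and 140.1 CPM in replicates 4 and 5, CLN1 103 and 119 CPM, CLN3 130.3 and 149.8 CPM, SWI4 115 and 128 CPM, and SIC1 82.5 and 73.5 CPM. FAR1 averaged 170.1 and 179.8 CPM, and STE12 413 and 254 CPM. Replicate numbers and growth conditions are not tied in the sources used here, and the part of culture state in these differences was not tested.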
